A study of Capra hircus with 12 samples.

Results

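In total, 9 small RNA sequences without a miRNA name were at least 2-fold more abundant in the skin of cashmere goat embryos at day 65 of gestation (E65) than at day 45 (E45). They were selected on those same values: the row name begins with chr, the E65 level is at least 20 RPM (reads per 1000000 reads in the table), the ratio of RPM + 1 between E65 and E45 is at least 2, and an identical sequence is counted once. The 9 were 2.11% of the 426 distinct sequences with such chromosome names, and 5.56% of the 162 of these that reached 20 RPM at E65. The count depends on the scaling: with the median row of each library set equal, 58 sequences met the same limits, and with the upper quartile set equal 57 did, the 9 among them both times. The whole table held 649 rows with 586 distinct sequences, of which 150 carried sheep miRNA names (prefix oar) and the rest only a chromosome, scaffold or contig label. A row label such as chr16_7465 gives the chromosome, and the digits at its end are a serial label of the row and not a position. Each of the 9 sequences stood in 1 row only.

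The samples were skin from the middle of the flank of Inner Mongolia cashmere goat embryos, taken at E45, E55 and E65 with no treatment or genetic change, across the days in which primary hair follicles begin to form. At each stage the skin of 3 embryos was mixed before RNA extraction and sequenced as 1 small RNA library, so there was no replicate, no test was possible and every interval covers counting error only. The libraries held 2455495, 4125757 and 2344785 reads in the rows of the table at E45, E55 and E65, and 1 read was worth 0.407, 0.242 and 0.426 RPM. RPM are shares of the table's reads, so directions were also read with the median row of each library set equal. In pooled skin, more cells of a type and more RNA per cell cannot be told apart.

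Mature miRNAs are short single-stranded RNAs that guide Argonaute proteins to messenger RNAs, mostly through pairing of the seed, bases 2 to 8, with the target. Families that share a seed share many targets. In skin, the miR-200 family and miR-205 are known for their abundance in epithelial cells, while miR-143 and miR-145 are known for smooth muscle and other mesenchymal cells.

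The sequences are shown because the rows have no miRNA name and the letters are what identifies them. They are printed 5′ to 3′ as DNA letters with the seed in capitals, in the order of their E65 level.
chr16_7465: tCCTTCATtccaccggagtctgt
chr7_3510: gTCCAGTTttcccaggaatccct
chr5_2836: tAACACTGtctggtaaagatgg
chr26_10908: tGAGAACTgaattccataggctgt
chrX_12979: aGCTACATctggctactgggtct
chr16_7396: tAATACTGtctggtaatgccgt
chr16_7184: tGGCAGTGtcttagctggttgtt
chrX_13128: aTTGGCACgtcttggaatgc
chrX_12954: aCTGGACTtggagtcaga

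From general knowledge of conserved miRNAs, the letters of chr16_7465 are those of miR-205, of chr5_2836 those of miR-141, of chr16_7396 those of miR-429, of chr7_3510 those of miR-145, of chr16_7184 those of miR-34a, of chr26_10908 those of miR-146b and of chrX_12979 those of miR-222. The 18 bases of chrX_12954 are the opening bases of the row chr7_3511, whose letters are those of miR-378. No such name was at hand for chrX_13128. These names were not checked against a database of miRNA sequences and serve as background, and the values belong to the rows. Of the 8 names, 7 were found in the RefSeq gene table for goat, 6 of them on the chromosome given in the row label, and the exception was miR-378, listed on chromosome 7 where the row chrX_12954 is labelled X.

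The 9 sequences together made up 4859.71 RPM at E45, 9822.72 RPM at E55 and 31681.2 RPM at E65, which was 0.486%, 0.982% and 3.17% of the reads in the table. The summed level was 2.02-fold higher at E55 than at E45 and 3.23-fold higher at E65 than at E55. The gain between E45 and E55 was 4963.01 RPM and the gain between E55 and E65 was 21858.5 RPM. A single sequence, chr16_7465, held 42.3%, 56.8% and 68.03% of the summed level at the successive stages. Without it the sums were 2803.09, 4247 and 10128 RPM, and the ratio of E65 to E45 was 3.61 in place of 6.52.

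**Figure D1:**
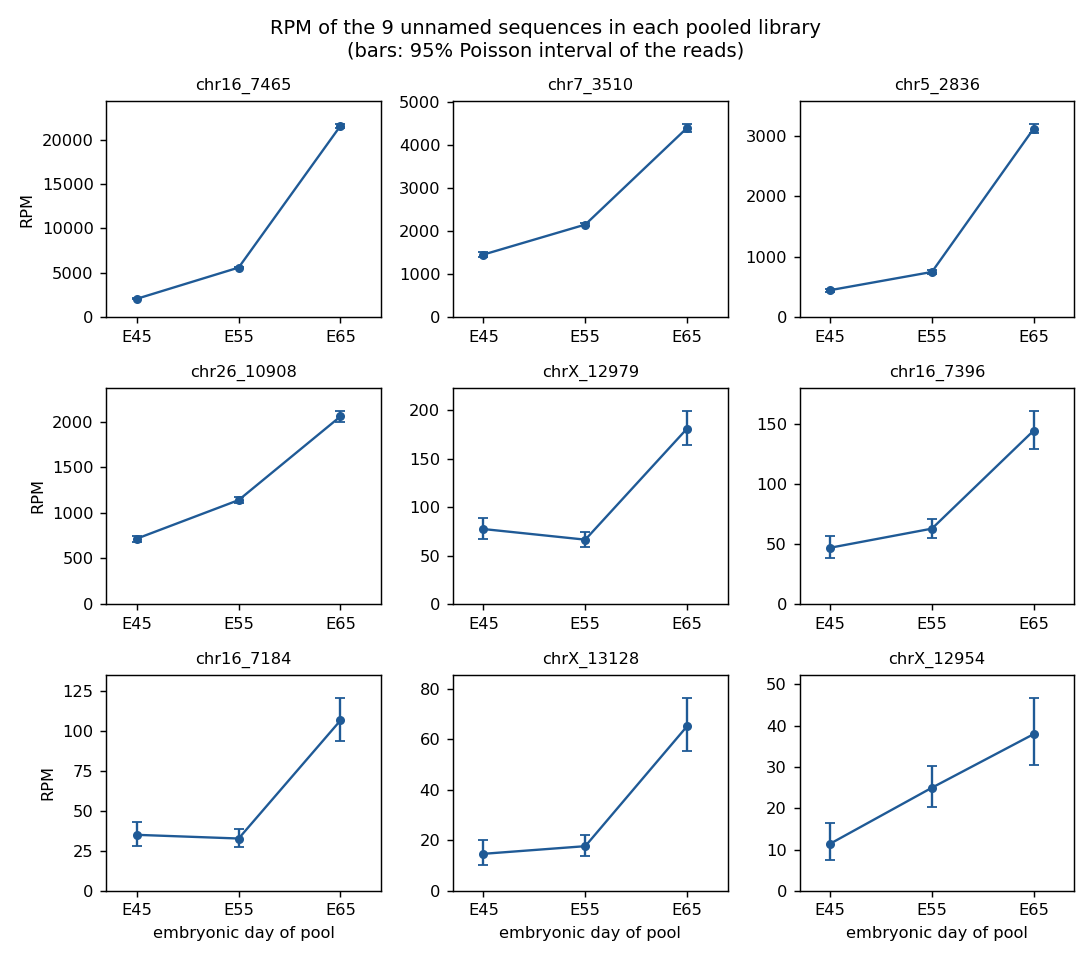
Level in RPM (vertical axes, each starting at 0 with its own range) of each of the 9 sequences in the E45, E55 and E65 pools (horizontal axes), with bars for the 95% exact Poisson interval of the reads. In every panel the E65 point is the highest, and chrX_12979 and chr16_7184 lie slightly lower at E55 than at E45, which turns when the median rows are set equal.

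The highest of the 9 was chr16_7465, in the letters of miR-205, a miRNA of basal cells in stratified epithelia. It stood at 2056.62 RPM at E45, 5575.72 RPM at E55 and 21553.2 RPM at E65, and moved from rank 71 to rank 12 among the 586 sequences. Its level at E55 was 2.71 times that at E45 (95% exact binomial counting interval 2.63 to 2.80), and its level at E65 was 3.87 times that at E55 (3.81 to 3.93). The ratio of E65 to E45, 10.5 (10.2 to 10.8), was the largest of the 9. On the log2 scale 42.4% of this difference lay between E45 and E55 as RPM, and 48.6% with the median rows set equal. Its seed was found in no other sequence of the table.

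The sequences chr5_2836 and chr16_7396 have the letters of miR-141 and miR-429, members of the miR-200 family, which is known to repress the transcription factors ZEB1 and ZEB2 in epithelial cells. Levels of chr5_2836 were 445.12, 747.5 and 3125.22 RPM at E45, E55 and E65. Those of chr16_7396 were 46.83, 62.78 and 144.58 RPM. Both were highest at E65, with the wider gap between E55 and E65. For chr5_2836 the ratio was 1.68 (1.57 to 1.80) between E45 and E55 and 4.18 (4.01 to 4.36) between E55 and E65, the largest late ratio of the 9. For chr16_7396 it was 1.34 (1.07 to 1.68) and 2.30 (1.95 to 2.72). Of the log2 difference between E45 and E65, 26.6% for chr5_2836 and 25.9% for chr16_7396 was in place by E55 as RPM, and 37.9% and 42.3% with the median rows set equal. The pair had the same base at 17 of 22 aligned positions, and their seeds differ.

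Named rows of the same family are shown beside them, because chr16_7396 has the seed of miR-200b and miR-200c, and the row of miR-200a starts 1 base later than chr5_2836 and has the same base at 18 of 19 aligned positions.
oar-miR-200b: tAATACTGcctggtaatgatg
oar-miR-200c: tAATACTGccgggtaatgatgg
oar-miR-200a: aACACTGTctggtaacgat
The row oar-miR-200b had 76.56, 120.95 and 451.21 RPM, and oar-miR-200c had 41.54, 77.56 and 306.64 RPM. Their ratios of E65 to E45 were 5.89 (5.04 to 6.92) and 7.38 (5.99 to 9.17), beside 7.02 (6.59 to 7.49) for chr5_2836 and 3.09 (2.49 to 3.85) for chr16_7396. Thus the counting interval of chr16_7396 lay under those of the 3 others. Of the reads with its seed, chr16_7396 made up 28.4% at E45, 24.03% at E55 and 16.02% at E65. The row oar-miR-200a held 1, 2 and 3 reads, at or below the 3 reads used here as the detection floor, and gives no ratio. In the RefSeq gene order for goat, MIR141 lies next to MIR200C and MIR429 next to MIR200A, with 0 genes between them.

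The tissue label was checked against fixed lists of miRNA names. Of 7 epidermal miRNAs, 3 rows were matched by name, the miR-200 rows above, with sums of 118.51, 198.99 and 759.13 RPM at E45, E55 and E65 and oar-miR-200b as the most abundant. Of 5 dermal miRNAs 3 rows were matched, with sums of 130633, 137851 and 176244 RPM and oar-miR-143 as the most abundant. The sum joins rows that differ in direction as RPM: oar-miR-143 and oar-miR-21 (30039.6, 32140.6 and 52578.9 RPM) were highest at E65, while oar-miR-199a-3p, at 32610.2, 22583.1 and 27994.7 RPM, was highest at E45. With the median rows set equal, oar-miR-199a-3p was also higher at E65, with a log2 ratio of 0.80 to E45. The single muscle row, oar-miR-133, had 3105.69, 6622.57 and 2012.97 RPM, lower at E65 than at E45 as RPM but higher with the median rows set equal (log2 ratios of -0.63 and 0.40). The neuronal row oar-miR-218a had 3424.57, 1072.29 and 1339.99 RPM. An immune row, oar-miR-150, had 6.11, 8.24 and 13.65 RPM, and the endothelial, erythroid and liver lists were matched by 0 rows. Only rows with a sheep miRNA name were searched, 151 of the 649 rows. A listed miRNA that stands in an unnamed row was therefore not counted, and a list with 0 matches is not shown to be absent. The epidermal rows oar-miR-200b and oar-miR-200c were thus higher at E65 than at E45 as RPM, while oar-miR-200a was too low to say. The dermal rows oar-miR-143 and oar-miR-21 and the immune row oar-miR-150 were also higher, while oar-miR-199a-3p and the muscle and neuronal rows were lower. With the median rows set equal, oar-miR-218a alone of these was lower at E65, with a log2 ratio of -0.33 to E45. A higher level at E65 was thus not particular to the epidermal rows. The part of a shift in cell types in these levels was not tested.

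Next in abundance at E65, chr7_3510 has the letters of miR-145. It had 1455.51, 2154.04 and 4407.2 RPM at E45, E55 and E65. The level at E55 was 1.48 times that at E45 (1.42 to 1.54). At E65 it was 2.05 times that at E55 (1.99 to 2.11). As RPM 35.4% of the log2 difference fell in the first interval, and with the median rows set equal 48.5% did, so the steps were then nearly equal. The RefSeq table places MIR145 next to MIR143, a partner with which miR-145 is known to share a primary transcript. The row oar-miR-143 was far more abundant, at 67983.6, 83127.6 and 95670.1 RPM, and its ratio of E65 to E45 was 1.41, against 3.03 (2.91 to 3.15) for chr7_3510. The seed of chr7_3510 also occurs in chr14_6595, with 2, 8 and 0 reads in the 3 pools.

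The sequence chr26_10908, in the letters of miR-146b, belongs to a family known for damping NF-kB signalling downstream of Toll-like and interleukin receptors. Its levels were 717.17, 1140.89 and 2059.88 RPM at E45, E55 and E65. Its steps were close to each other as RPM, with ratios of 1.59 (1.51 to 1.68) and 1.81 (1.73 to 1.88), and 44.0% of the log2 difference lay before E55. The row chr7_3534 shares its first 20 bases and differs near the 3′ end, and both are printed for that reason.
chr26_10908: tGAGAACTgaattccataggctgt
chr7_3534: tGAGAACTgaattccataggtt
This companion stood at 753.82, 808.34 and 1002.65 RPM, so the pair began at nearly the same level. The ratio of E65 to E45 was 1.33 (1.25 to 1.41) for chr7_3534 and 2.87 (2.72 to 3.04) for chr26_10908, whose share of the reads with the seed was 48.8% at E45, 58.5% at E55 and 67.3% at E65. Reads that end within the shared bases fit both rows, and how such reads were assigned is not given in the sources used here.

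For chrX_12979 and chr16_7184, the RPM at E55 was not between those at the other stages. The letters of chrX_12979 are those of miR-222, which is known to target KIT and the cell cycle inhibitor CDKN1B. Its levels were 77.38, 66.41 and 181.25 RPM. The ratio of E55 to E45, 0.858, had a counting interval of 0.711 to 1.04 that includes 1, and the ratio of E65 to E55 was 2.73 (2.34 to 3.19). In the RefSeq table MIR222 lies next to MIR221, and the row oar-miR-221 shares the first 8 bases of chrX_12979, as its letters show.
chrX_12979: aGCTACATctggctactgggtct
oar-miR-221: aGCTACATtgtctgctgggttt
Levels of oar-miR-221 were 111.99, 100.1 and 313.46 RPM, with ratios of 0.894 (0.766 to 1.04) and 3.13 (2.77 to 3.54). Both rows of the pair were thus highest at E65, and lowest at E55 as RPM. With the median row of each library set equal, E55 was higher than E45 for both, with log2 ratios of 0.48 for chrX_12979 and 0.54 for oar-miR-221. Of the reads with this seed, chrX_12979 held 40.9%, 39.9% and 36.6% at the successive stages.

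The sequence chr16_7184 has the letters of miR-34a, known as a transcriptional target of p53 that represses cell cycle genes. It had 35.02, 32.72 and 106.62 RPM, from 86, 135 and 250 reads. The ratio of E55 to E45 was 0.934 (0.708 to 1.24), again not distinguishable from 1 by counting as RPM, and that of E65 to E55 was 3.26 (2.63 to 4.05). Its seed also occurs in chr15_6780 and chr20_8878. The first of these had 460.19, 273.16 and 262.28 RPM, and the second 8.55, 4.85 and 7.25 RPM. Both were highest at E45 as RPM, but with the median rows set equal their log2 ratios of E65 to E45 were 0.21 and 0.69, beside 2.58 for chr16_7184. The share of chr16_7184 in the reads with this seed was 6.95% at E45, 10.5% at E55 and 28.3% at E65.

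The remaining pair were the least abundant and are both labelled X. For chrX_13128, of 20 bases, the levels were 14.66, 17.69 and 65.25 RPM from 36, 73 and 153 reads. Its ratio of E55 to E45 was 1.21 (0.799 to 1.85) as RPM and its ratio of E65 to E55 was 3.69 (2.77 to 4.94). With the median rows set equal, the log2 ratios of chrX_13128 were 0.91 and 2.14 for these steps. The overall ratio of 4.45 (3.08 to 6.59) was exceeded by those of chr16_7465 and chr5_2836. Its seed stands in chr4_2323 and chr7_3428 as well, at 6384.06, 1114.95 and 5657.2 RPM and at 3710.05, 2454.35 and 3005.38 RPM. As RPM both were lower at E65 than at E45, with log2 ratios of -0.17 and -0.30, and with the median rows set equal both were higher, with 0.85 and 0.72. In the reads with that seed chrX_13128 made up 0.145%, 0.493% and 0.748% at the successive stages.

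The shortest sequence, chrX_12954, had 11.4, 24.97 and 37.96 RPM from 28, 103 and 89 reads. It was the one member with its larger step between E45 and E55, at a ratio of 2.19 (1.43 to 3.45) against 1.52 (1.13 to 2.04) between E55 and E65. In log2 terms 64.6% of its difference lay before E55. All of its 18 bases match the row chr7_3511, shown here for comparison.
chrX_12954: aCTGGACTtggagtcaga
chr7_3511: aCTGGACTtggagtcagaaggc
The longer row had 2902.88, 6641.23 and 4844.77 RPM, highest at E55, with ratios of 2.29 (2.23 to 2.35) and 0.729 (0.714 to 0.746). Reads of chrX_12954 were 0.391%, 0.375% and 0.777% of the reads with this seed. A read of 18 bases that begins either row fits both, and whether the reads of chrX_12954 came from a separate locus or from shortened copies of the longer RNA cannot be told apart.

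**Figure D2:**
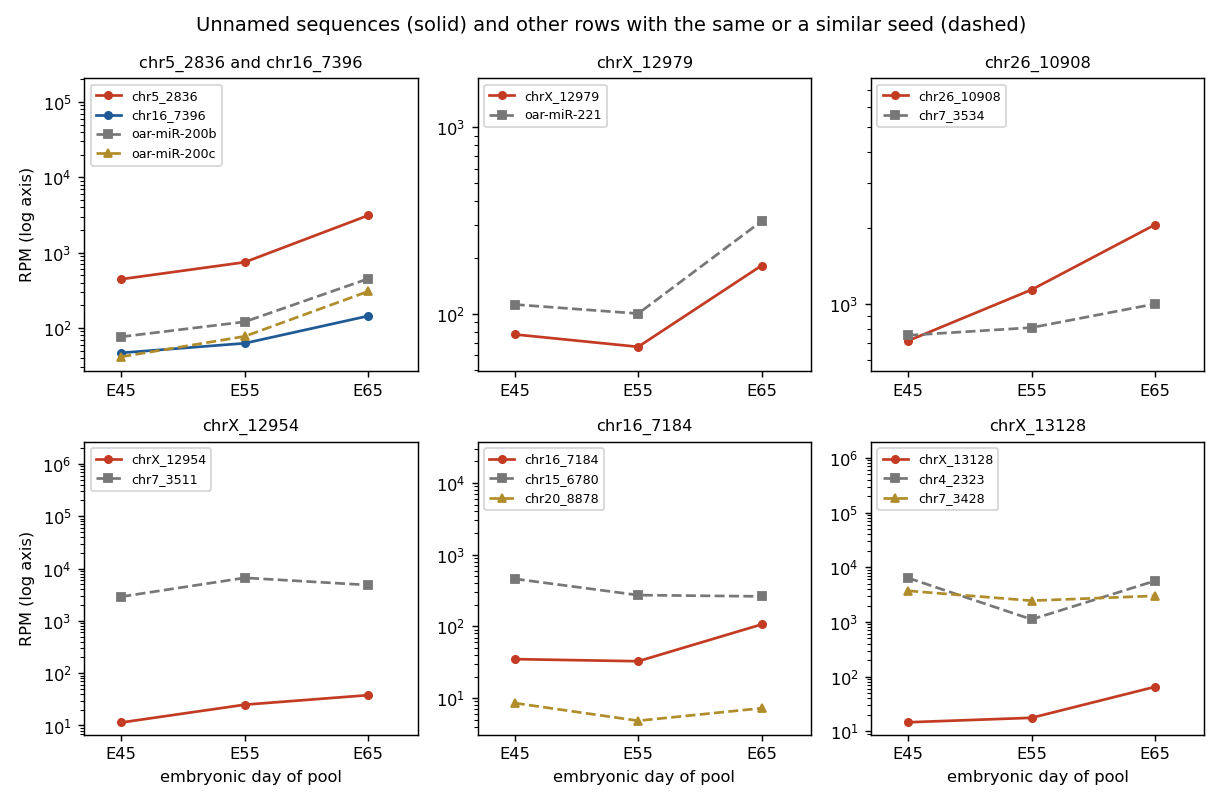
Levels in RPM (vertical log axes) at E45, E55 and E65 (horizontal axes) of 7 of the sequences (solid lines) and of other rows with the same seed (dashed lines). In the first panel oar-miR-200b and oar-miR-200c have the seed of chr16_7396, while chr5_2836 has another. The lines run side by side for chrX_12979 and oar-miR-221, and chr15_6780 lies lower at E65 than at E45 on this RPM scale, a direction that turns when the median rows are set equal.

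By timing, 8 of the 9 had the larger log2 step between E55 and E65. The background was of the same order, since 73.5% of the 162 unnamed sequences of at least 20 RPM at E65 had their larger, meaning more positive, step there. At least 2-fold higher levels at E55 than at E45 were found for 2 of the 9, chr16_7465 and chrX_12954, beside 3.09% (5) of the 162. At least 2-fold higher levels at E65 than at E55 were found for 7 of the 9, all but chr26_10908 and chrX_12954, beside 9.88% (16) of the 162. These counts hold for RPM: with the median rows set equal they were 6 of the 9 (12.3% of the 162) at E55 against E45 and 8 of the 9 (16.05% of the 162) at E65 against E55, and 7 of the 9 had the larger step between E55 and E65, beside 59.9% of the 162. With the upper quartile set equal, 8 of the 9 had the larger step between E55 and E65, beside 72.2% of the 162. Because the members were chosen by the sum of both steps, these counts describe them and test nothing.

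**Figure D3:**
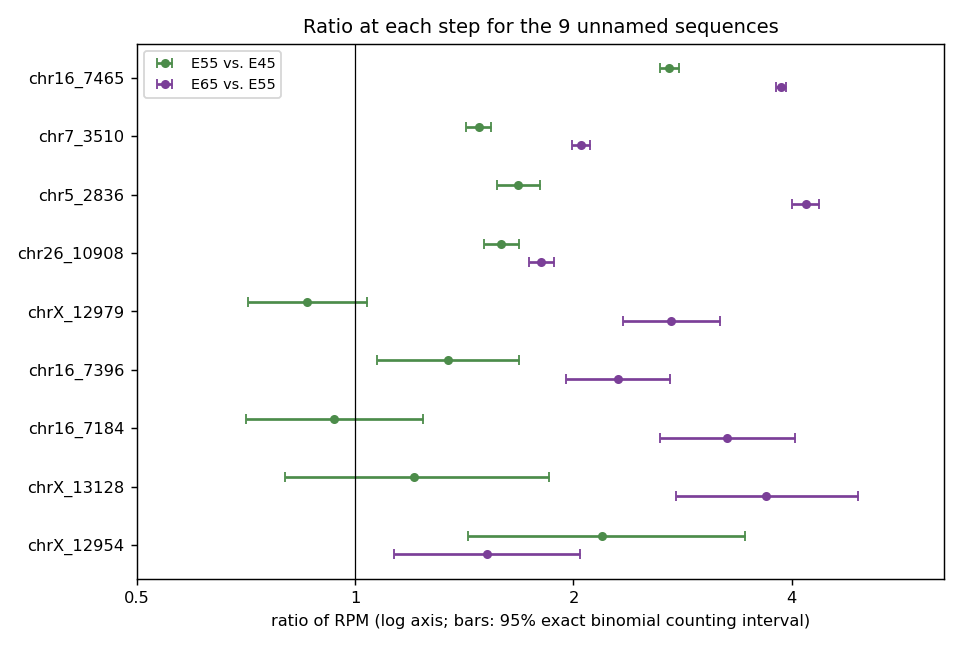
Ratio of RPM (horizontal log axis) of E55 to E45 (green) and of E65 to E55 (purple) for each of the 9 sequences (vertical axis, ordered by E65 level), with 95% exact binomial counting intervals. The purple points lie to the right of the green ones for 8 of the 9, and the green intervals of chrX_12979, chr16_7184 and chrX_13128 include 1 on this RPM scale. Setting the median row of each library equal adds 0.71 to a plain log2 ratio of E55 to E45 and 0.32 to that of E65 to E55.

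The median log2 ratio of the 9 sequences was 0.57 for E55 against E45, 1.43 for E65 against E55 and 1.61 for E65 against E45. For the other 153 unnamed sequences of at least 20 RPM at E65 the medians were -0.47, 0.08 and -0.41. For the 108 named sequences of at least 20 RPM at E65 they were 0.15, -0.48 and -0.30, and for all 150 named sequences, of any level, 0.16, -0.52 and -0.36. Of the named sequences of at least 20 RPM at E65, 6.48% (7 of 108) were at least 2-fold higher at E65 than at E45, against 5.56% of the unnamed ones. In the opposite direction, 36.0% of the 197 unnamed sequences with at least 20 RPM at E45 were at least 2-fold lower at E65. The levels are shares of the reads in the table, so the center matters: the median row stood at 26.88, 16.48 and 13.22 RPM, and setting these equal adds 1.02 to a plain log2 ratio of E65 to E45, and less to a ratio of RPM + 1 of a row at low levels. Under that scaling 58 sequences met the rule, the 9 and 49 others, and chr16_7184, like chrX_12979, was higher at E55 than at E45, with a log2 ratio of 0.59. By the same scaling the larger step of chr26_10908 was that between E45 and E55, with 1.37 against 1.17. With the upper quartile set equal it was that between E55 and E65, with 1.28 against 1.23. E55 lay between E45 and E65 for 7 of the 9 as deposited, and for 9 (5.88%) of the other 153 sequences the level was likewise higher at each stage than at the one before. The 9 were chosen for a higher level at E65 than at E45, and the 153 are those that did not reach that ratio. This contrast therefore follows in large part from the rule and tests nothing.

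**Figure D4:**
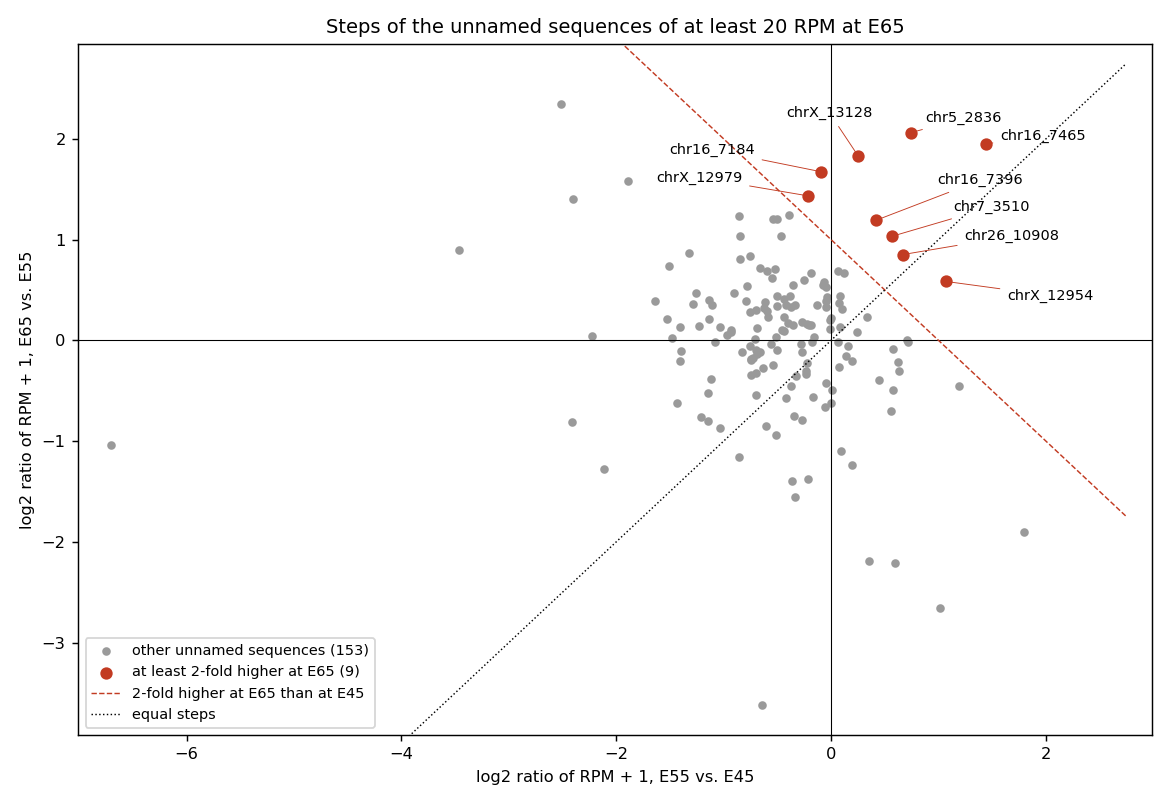
Log2 ratio of RPM + 1 at E65 against E55 (vertical axis) and at E55 against E45 (horizontal axis) for the 162 unnamed sequences of at least 20 RPM at E65. The dashed line marks the 2-fold difference between E65 and E45 that chose the 9 labelled red points, the dotted line marks equal steps, and only chrX_12954 of the red points lies below the dotted line.

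Values near the limits of the rule were as follows. Just inside the ratio of 2 lay chrX_12979 at 2.33, chr26_10908 at 2.87 and chr16_7184 at 2.99, and just outside lay chr19_8572 at 1.81, chrX_13124 at 1.72 and chr12_5948 at 1.69, all as ratios of RPM + 1. Just inside the level of 20 RPM at E65 lay chrX_12954 at 37.96, chrX_13128 at 65.25 and chr16_7184 at 106.62 RPM. Outside it, with a ratio over 2, lay chr24_10345 at 18.76, chr21_9454 at 16.21 and chr10_4907 at 14.5 RPM. Among the 162 sequences of at least 20 RPM at E65, none had a ratio between 1.81 and 2.33.

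The labels of the 9 sequences named 5 of the 30 chromosomes in the table. Chromosome 16 had 3 (chr16_7465, chr16_7396 and chr16_7184), chromosome X had 3 (chrX_12979, chrX_13128 and chrX_12954), and chromosomes 5, 7 and 26 had 1 each. Among all 185 unnamed rows of at least 20 RPM at E65, chromosome 16 held 9 (4.86%) and X held 36 (19.5%). Together, X and 16 carried 6 of the 9 sequences and 24.3% of those rows. The other rows on these chromosomes are given as RPM first, since their direction turns with the scaling. On chromosome 16 the 6 others had a median log2 ratio of E65 to E45 of -0.42, from -3.39 to 0.57, and 2 of them were higher at E65. On X the 33 others had a median of -0.07, from -2.06 to 0.78, and 12 were higher at E65. The 8 others on chromosome 5, the 10 on chromosome 7 and the 2 on chromosome 26 had medians of -0.75, -0.66 and -0.49. With the median rows set equal these medians were all above 0, at 0.60 on chromosome 16, 0.94 on X, 0.27 on 5, 0.36 on 7 and 0.51 on 26, and 5 of the 6 others on chromosome 16 and 24 of the 33 on X were then higher at E65.

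In length the 9 sequences ran from 18 to 24 bases with a median of 23, beside a median of 22 for the 162. Lengths of 22 or 23 bases were found in 6 of the 9 (66.7%) and in 71.0% of the 162. A first base of T, written U in RNA and the usual first base of miRNAs bound by Argonaute, was found in 5 of the 9 (55.6%) and in 43.8% of the 162. The median GC content was 50% against 45.5%. All 9 had different seeds, so none belonged to the same seed family as another. The seed of 7 of the 9 occurred in another sequence of the table, beside 37.7% of the 162, and the seed of 2 of them occurred in a named row, beside 11.1%. By rank, 4 of the 9 were among the 100 most abundant sequences at E65 and 2 at E45. Levels of different small RNAs also depend on how well each sequence is ligated and amplified, which was not measured, so the order of the 9 by level is descriptive.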

How the data were processed

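Small RNA from 3 pools of embryonic goat skin, each of 3 embryos, was measured in 1 library per stage. The deposited table gives, for each row, a sequence and a value per stage that the authors call TPM. The values in each library sum to about 1000000 without scaling for length, and are therefore RPM (reads per 1000000) of the deposited rows. Per the labels, adaptors were ligated, bands of miRNA size were cut from a gel and Illumina GAIIx and NextSeq instruments were used, without saying which for which library. Bowtie is named in the submitters' processing notes, and the genome build is not given in the sources used here. Low values were whole multiples of 1 read in 100% of 228, 216 and 256 values (tolerance 0.1 read), from which reads were recovered. Ratios of the rule used a pseudocount of 1 RPM. Ratios with intervals are plain RPM ratios with exact binomial (Clopper-Pearson) 95% limits, and single levels have exact Poisson limits, and both cover counting error only. No test was made, for lack of replicates. Rows named were, by the rule, the most abundant and most different of the 9 sequences, which took in all 9, those sharing a seed with a named row, and those nearest each threshold. Other rows with the same seed were named after their values were seen. The members and lists were chosen with earlier results of these data known. The calculation was checked on simulated data. Tools were Python 3.11.15, pandas 2.3.3, numpy 2.4.6 and scipy 1.17.1. Gene symbols and their order are from RefSeq. The deposited gene RPKM table was not used here.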

Additional observations from a re-analysis of the deposited data

How the results depend on the processing

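Alternatives for the scaling, the pseudocount and the limits of the rule were set against 9 members, of which 8 had the larger step between E55 and E65 and 2 lay below E45 at E55, with median log2 ratios of 1.61 (E65 against E45) and 1.43 (E65 against E55) and 6.10% of all unnamed sequences past the fold. With the median row set equal, 58 sequences passed, 33 with the larger step between E55 and E65 and 5 below E45 at E55, with a median late log2 ratio of 0.87 and 23% past the fold. With the upper quartile set equal, 57 passed, 40 with the larger late step and 7 below E45 at E55, with a median late ratio of 0.97 and 22.1% past the fold. By construction these scalings add 1.02 and 0.99 to a plain log2 ratio of E65 to E45, less to a ratio of RPM + 1 of a row at low levels, and both kept all 9 members. An E65 minimum of 10 RPM gave 14 members, 12 with the larger late step and 4 below E45 at E55, and a median log2 ratio of E55 to E45 of 0.34 in place of 0.57. A ratio of at least 1.5 gave 17 members, 13 with the larger late step and 5 below E45 at E55, medians of 1.22 and 1.19, and 10.1% past the fold. A ratio of at least 4 gave 3 members, 3 with the larger late step and 0 below E45 at E55, medians of 2.81 and 1.95, and 0.704% past the fold. The 3 kept were chr16_7465, chr5_2836 and chrX_13128. A pseudocount of 10 left 9 members and put 2.11% of the unnamed sequences past the fold. A minimum of 50 RPM lost chrX_12954 alone. With the 12 and the 0.34 above among them, 38 values stayed within 1.5 times for a count, the median half-width of the members' counting intervals for a median, or the 95% binomial interval for a percentage. No paired analysis was possible because each stage has 1 small RNA library, and for the same reason no replicate could be left out. Depth limits chrX_12954 and chrX_13128 most, at 28 and 36 reads at E45, and pooling hides the spread between embryos.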

Other observations

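Among named rows of at least 20 RPM at E65, 7 of 108 (6.48%) met the same limits as the unnamed sequences, and they are listed as values that were singled out after they were seen. Of these, 3 were let-7 rows, members of a family known for its increase as cells differentiate. Levels at E45, E55 and E65 were 375.48, 1108.89 and 1548.11 RPM for oar-let-7f, 403.59, 788.22 and 1215.88 RPM for oar-let-7g, and 106.29, 227.11 and 409.42 RPM for oar-let-7b. Each of the 3 had its larger log2 step between E45 and E55 and its highest level at E65. The row oar-miR-377-3p had 49.68, 123.13 and 110.88 RPM, close to level between E55 and E65. The larger step lay between E55 and E65 for 3 of the 7, the rows of miR-200b, miR-200c and miR-221, against 8 of the 9 unnamed sequences. The backgrounds differ in the same way, since the larger step lay there for 29.6% of the 108 named and 73.5% of the 162 unnamed sequences of at least 20 RPM at E65. These counts come from sequences chosen by the same limits, and the difference between them was not tested.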
